A study of Mus musculus with 45 samples.

Results

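Adipocytes of 9 DW16 mice were compared with those of 8 EW16 mice, 17 of the 45 mice of the series, to ask what the loss of 1 copy each of the insulin receptor and IRS1 genes goes with after a long Western diet. DW16 mice are IR+/- IRS1+/- ApoE-/- (called Dhet, D), EW16 mice are ApoE-/- (E), so that both lack ApoE. All were female C57BL/6 mice put on the Western diet at 8 weeks of age and kept on it for 16 weeks. Fat cells were isolated from the parametrial and periovarian depots, and the RNA of each mouse was hybridized to 1 Affymetrix array with 45037 probe sets, each of which reads a stretch of a transcript. The members of the comparison were all samples that the labels put in these groups, with every probe set. Levels are deposited log2 values, differences are DW16 minus EW16 in log2 units (1 unit is a 2-fold change), and a probe set is called when its limma p, adjusted over all probe sets by Benjamini and Hochberg, is under 0.01. As checks in mice that share no sample with these, D and E mice were also compared after 16 weeks of chow (DC16, n = 5, and EC16, n = 5) and after 8 weeks of Western diet (DW8, n = 5, and EW8, n = 6).

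Insulin binds its receptor, a tyrosine kinase on the surface of the fat cell, and the receptor phosphorylates docking proteins such as IRS1, which recruit PI3 kinase. The kinase AKT then moves the glucose transporter GLUT4 to the surface, restrains lipolysis and keeps the transcription factor FOXO1 out of the nucleus. Mice that are heterozygous for both genes are a model of polygenic insulin resistance, and they carry the deletions in every tissue, not in fat cells alone.

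The arrays did not span the same range of values within either group, and the results below are given with that in view. The 95th percentile of an array was 10.14 to 10.50 on 6 arrays, called compressed here (DW16 mice 2, 3, 4 and 6 and EW16 mice 2 and 3), 10.79 to 10.85 on 4 intermediate arrays (DW16 mice 1, 5 and 7 and EW16 mouse 1) and 10.99 to 11.08 on 7 full-range arrays (DW16 mice 8 and 9 and EW16 mice 4 to 8). The arrays of all 28 other mice lay between 10.95 and 11.14. Both groups therefore held all 3 kinds of array, but 7 of 9 DW16 arrays and 3 of 8 EW16 arrays fell short of the full range. The mean 95th percentile was 10.63 ± 0.34 (SD, n = 9) in DW16 and 10.81 ± 0.367 (SD, n = 8) in EW16, a difference of −0.18 that did not pass the test (exact permutation test, two-sided, p = 0.306; SD of the array p = 0.291; interquartile range p = 0.208; adjusted p over these 3 tests 0.306 each). Among the tenth of probe sets with the highest mean level the median difference was −0.16 as deposited and −0.00 after quantile normalization, which gives all 17 arrays the same distribution. The first principal component took 47.1% of the variance before and 41.1% after that step, and in both cases its 10 lowest mice were those on compressed and intermediate arrays.

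**Figure D1:**
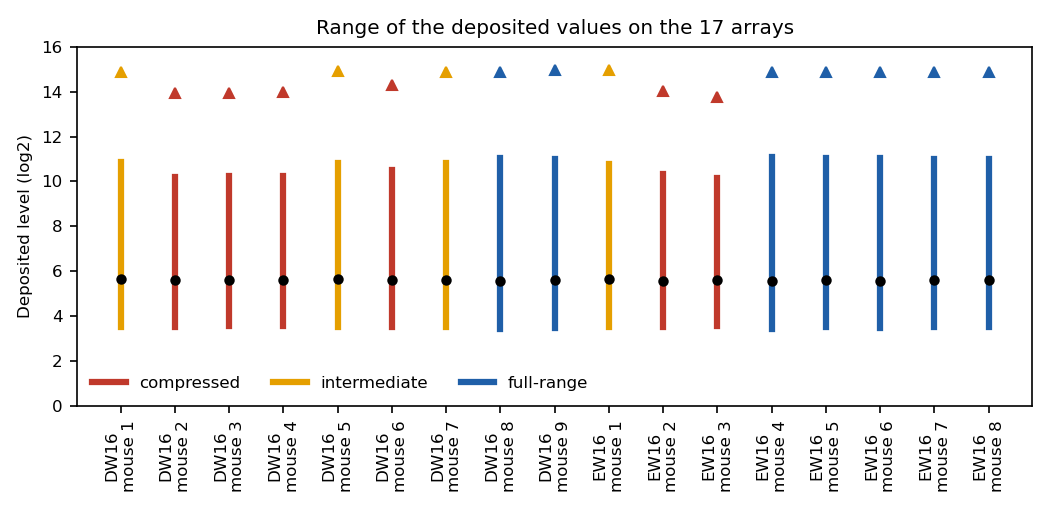
Range of the deposited log2 values on each array of the 9 DW16 and 8 EW16 mice: bars run from the 5th to the 95th percentile, black points are medians, triangles the highest value, and colours the 3 range classes. Compressed arrays end at a 95th percentile of 10.14 to 10.50 and full-range arrays at 10.99 to 11.08, with medians at nearly the same level.

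The genes the results turn on lie near Irs1 on chromosome 1 and near Insr on chromosome 8, and the promoters of 5 of them are shown so that the loci can be read beside the levels. Each run is 300 bases (250 before and 50 after the start of the gene) from RefSeq on GRCm38.p6, written 5′ to 3′ on the strand of the gene, and 5 of 7 genes looked up had an entry. Capitals mark 3 short motifs found on either strand: the GC box GGGCGG, the CCAAT box CCAAT, and the E-box CACGTG, where they do not overlap one another.
Irs1 promoter, chr1:82291390-82291689, minus strand: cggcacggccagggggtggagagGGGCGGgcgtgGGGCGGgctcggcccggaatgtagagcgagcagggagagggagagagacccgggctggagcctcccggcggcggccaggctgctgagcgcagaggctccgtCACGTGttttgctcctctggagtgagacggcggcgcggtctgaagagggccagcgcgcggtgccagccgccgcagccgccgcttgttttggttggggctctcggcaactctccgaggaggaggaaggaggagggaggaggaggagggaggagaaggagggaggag
Farsb promoter, chr1:78488848-78489147, minus strand: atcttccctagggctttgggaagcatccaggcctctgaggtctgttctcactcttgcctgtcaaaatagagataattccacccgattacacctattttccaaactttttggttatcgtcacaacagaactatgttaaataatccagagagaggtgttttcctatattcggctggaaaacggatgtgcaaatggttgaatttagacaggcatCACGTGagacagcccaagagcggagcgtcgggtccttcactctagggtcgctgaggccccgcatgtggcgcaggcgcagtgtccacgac
Stk25 promoter, chr1:93635678-93635977, minus strand: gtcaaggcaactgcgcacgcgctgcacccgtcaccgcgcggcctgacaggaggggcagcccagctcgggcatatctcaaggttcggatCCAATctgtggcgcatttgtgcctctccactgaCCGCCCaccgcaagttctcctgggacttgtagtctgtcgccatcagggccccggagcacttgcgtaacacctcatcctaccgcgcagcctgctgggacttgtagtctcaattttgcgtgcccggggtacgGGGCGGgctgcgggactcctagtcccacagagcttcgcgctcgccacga
Cers4 promoter, chr8:4493155-4493454, plus strand: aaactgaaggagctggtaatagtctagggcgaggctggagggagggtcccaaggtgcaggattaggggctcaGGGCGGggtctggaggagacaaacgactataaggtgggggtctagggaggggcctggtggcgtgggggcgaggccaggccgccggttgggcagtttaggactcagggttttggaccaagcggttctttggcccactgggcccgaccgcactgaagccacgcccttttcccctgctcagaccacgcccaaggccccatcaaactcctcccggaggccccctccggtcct
Fcor promoter, chr8:3672342-3672641, minus strand: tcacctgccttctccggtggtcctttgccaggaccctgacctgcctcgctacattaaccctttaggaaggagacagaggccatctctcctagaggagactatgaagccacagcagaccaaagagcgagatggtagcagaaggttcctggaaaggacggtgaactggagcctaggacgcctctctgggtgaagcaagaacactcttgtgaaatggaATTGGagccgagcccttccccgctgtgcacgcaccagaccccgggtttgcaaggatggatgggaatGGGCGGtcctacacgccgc
The GC box stood in Irs1 and Stk25 (2 each), Cers4 and Fcor (1 each), and in 35.7% of all 32851 promoters of this length. The E-box stood in Irs1 and Farsb (1 each; 7.15% of all promoters), and the CCAAT box in Stk25 and Fcor (1 each; 37.4%). The forkhead motif GTAAACA, bound by FOXO proteins, was searched as well and was in none of the 5 (3.65% of all promoters).

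Insr, the gene of the insulin receptor, was lower in DW16 mice by the one probe set that reads it well (1434446_at). The level was 9.12, 9.38 and 9.90 (lowest, median, highest) in DW16 and 9.86, 10.41 and 11.11 in EW16. Only DW16 mouse 5 and EW16 mouse 3 overlapped. The means were 9.47 ± 0.265 (SD, n = 9) and 10.50 ± 0.458 (SD, n = 8), so that DW16 adipocytes held 49.0% of the EW16 level (difference −1.03, SE 0.17). In the exact permutation test over mice this had a two-sided p = 8.23e-05, 1 of 5 probe sets of targeted genes so tested, and SAM called it, but limma's p adjusted over all probe sets was 0.152. After quantile normalization the difference was −0.86 (SE 0.147, adjusted p = 0.105 in limma), 55.1% of the EW16 level. It was −0.62 within compressed, −0.40 within intermediate and −1.56 within full-range arrays. The other Insr probe sets, 1421380_at and 1450225_at, had levels of 3.93 to 5.33 in all 17 mice, below the median of the arrays, and their differences were −0.09 and 0.09.

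Irs1, which docks PI3 kinase at the receptor, read 10.07, 10.26 and 11.14 in DW16 and 10.09, 11.42 and 11.70 in EW16. Here the groups overlapped: the EW16 mice on compressed arrays (10.49 and 10.09) were among the DW16 mice, and 6 of 8 EW16 mice lay above every DW16 mouse. The difference was −0.69 (SE 0.226; limma adjusted p = 0.246; exact permutation test p = 0.0148) and −0.51 after quantile normalization (SE 0.132, limma adjusted p = 0.162). Within range classes it was −0.13 (compressed), −0.27 (intermediate) and −1.10 (full-range). In the other mice Irs1 differed less, by −0.18 between DC16 and EC16 and by −0.16 between DW8 and EW8, neither of which passed, and the difference between these effects and that in DW16 did not pass either (limma interaction terms −0.52 and −0.54, adjusted p = 0.813 and 0.774). Insr differed by −0.88 on chow and by −0.56 after 8 weeks. Apoe, deleted in both groups, differed by 0.03 (SE 0.167, limma adjusted p = 0.951), and its probe set does not check the deletion, which all these mice carry.

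**Figure D2:**
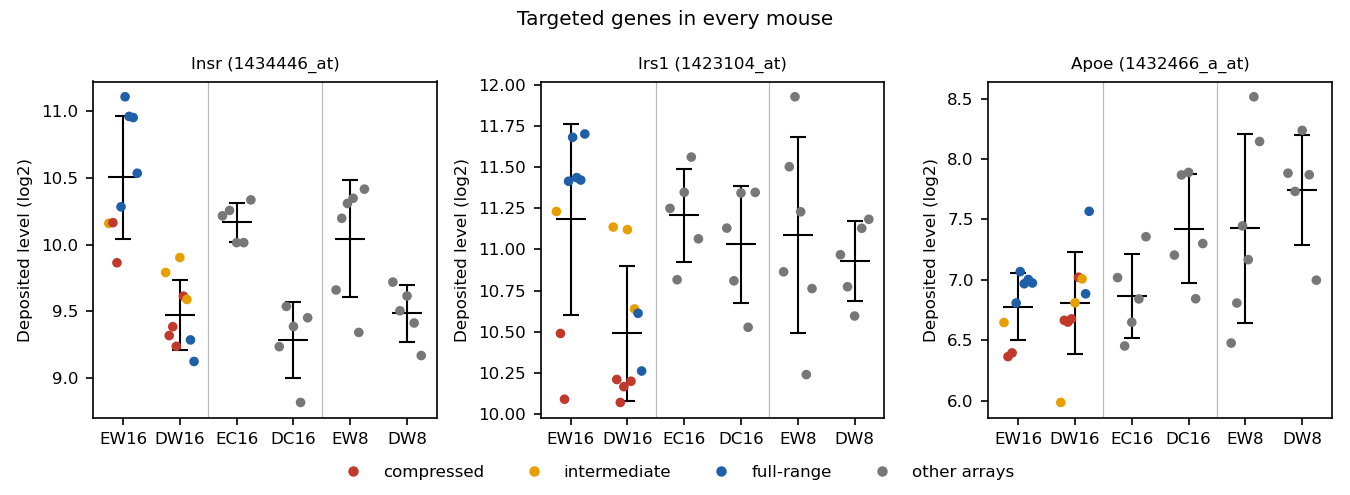
Deposited log2 levels of Insr, Irs1 and Apoe in every D and E mouse, each point 1 mouse, with the mean and SD of the group in black and the range class of the 17 arrays in colour. The mean of Insr is lower in D than in E mice in all 3 pairs of groups, and Irs1 overlaps in each pair.

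Across all probe sets, limma called 0 of 45037 between DW16 and EW16 as deposited (0% called), 0 after quantile normalization and 0 with the compressed arrays as a block. At an unadjusted p under 0.05 there were 6592 probe sets (14.6%) as deposited, 3034 higher and 3558 lower, and 7450 (16.5%) after quantile normalization, 3732 (8.29%) higher and 3718 (8.26%) lower. SAM, the other test the study used, called 16 as deposited (10 higher and 6 lower). The study kept only probe sets found by both tests, and by that rule 0 are left here, as limma called 0. Limma with 1 spread over all 7 groups of the series called 281 (151 higher and 130 lower). Limma with weights estimated for each array called 6393 (1823 higher and 4570 lower). The median SD of a probe set within a group was 0.256 in DW16 and 0.261 in EW16, and 0.137 to 0.187 in the other 5 groups. With the 3 range classes as a block, a fit chosen after the values had been seen, limma called 3 probe sets (0.00666%), and these were the same 3 after quantile normalization as well.

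Those 3 probe sets read the Ugt1a cluster, whose products attach glucuronic acid to bilirubin, steroids and drugs. The cluster lies just before the 57th measured gene after Irs1 on chromosome 1. Each of the probe sets (1424783_a_at, 1426260_a_at and 1426261_s_at) is annotated to the same 8 Ugt1a genes. These genes cannot be told apart here, so that the probe sets are 1 signal rather than 3. By 1424783_a_at the level was 10.54, 11.14 and 12.03 in DW16 and 9.79, 10.95 and 11.20 in EW16, and the groups overlapped. Within each range class they did not: compressed DW16 arrays (10.54 to 11.14) lay above compressed EW16 arrays (9.79 and 10.14), full-range DW16 arrays (both 12.03) above full-range EW16 arrays (10.90 to 11.20), and the differences were 0.91, 0.99 and 0.99 in compressed, intermediate and full-range arrays. As deposited the difference was 0.60 (SE 0.234, limma adjusted p = 0.277), after quantile normalization 0.78 (SE 0.106, adjusted p = 0.0322) and with the 3 classes as a block 0.96 (SE 0.099, adjusted p = 0.00043). The other probe sets of the cluster differed by 0.37 and 0.66 as deposited and by 0.93 and 1.20 with the block.

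The same cluster was higher in D mice that took no part in this comparison. In 1 limma fit of the 21 other D and E mice (DC16, EC16, DW8 and EW8), with the condition as a second term, all 3 probe sets were called, with differences of 0.77, 0.76 and 0.95 (adjusted p = 2.86e-06 to 6.96e-06). The DC16 mice (11.93 to 12.35) did not overlap the EC16 mice (11.27 to 11.55), nor the DW8 mice (11.79 to 12.24) the EW8 mice (10.93 to 11.43) by 1424783_a_at. The effect in DW16 against EW16 set against those of the other pairs did not pass (interaction terms −0.17 and −0.17, limma adjusted p = 0.932 and 0.936).

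In all, 5 probe sets were called over the 21 other mice (0.0111% of 45037; 8, or 0.0178%, at an adjusted p under 0.05), and all 8 lie on the chromosomes of Irs1 (6) and Insr (2), which hold 11.2% of the 35344 probe sets with a place in the gene order. All 8 had the same direction in DW16 against EW16, and 7 of 8 had an unadjusted p under 0.05 there after quantile normalization (5 of 8 as deposited). The 8 include the 3 Ugt1a probe sets, which are annotated to the same genes and are not separate signals. These counts therefore hold fewer signals than probe sets. Beside the Ugt1a cluster the genes are Stk25, Cers4, Wdfy1, Farsb and Elavl1. Farsb codes for a subunit of the phenylalanyl-tRNA synthetase and is the 13th measured gene before Irs1. Its level (1430986_at) was 6.72, 7.27 and 7.75 in DW16 and 6.28, 6.50 and 6.65 in EW16, with no overlap, and the difference of 0.75 (SE 0.119) had the smallest p of all probe sets as deposited, though limma's adjusted p was 0.152. It was 0.61, 0.92 and 0.43 in the 3 classes and 0.71 in the other mice. The Farsb probe sets disagreed: 1435103_x_at differed by 0.07, but 1423708_a_at and 1423709_s_at by −0.45 and −0.43 as deposited, and by 0.05 and −0.02 in the other mice.

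Wdfy1, an adaptor of Toll-like receptor signaling, is the 6th measured gene before Irs1. It read 7.80, 8.94 and 9.17 in DW16 and 7.48, 8.15 and 8.81 in EW16 by 1424749_at, and 5 of 9 DW16 mice lay above every EW16 mouse. The difference was 0.60 (SE 0.198, limma adjusted p = 0.247), 0.73 after quantile normalization and 0.89 in the 21 other mice (adjusted p = 0.0195). Its probe sets disagreed in DW16 against EW16: 1435588_at and 1437358_at differed by −0.86 and −0.28 there, against 0.62 and 0.66 in the other mice. Stk25, a kinase of lipid droplets and glucose use, is the 109th measured gene after Irs1. It read 6.42, 6.91 and 7.69 in DW16 and 6.63, 8.09 and 8.48 in EW16 (difference −0.77, SE 0.252, limma adjusted p = 0.246), against −0.59 in the other mice (adjusted p = 6.19e-05). Its difference was 0.10 within compressed, −0.12 within intermediate and −1.19 within full-range arrays.

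Cers4, a ceramide synthase, is the 34th measured gene after Insr, which is itself the first measured gene of chromosome 8. It read 7.56, 8.34 and 8.79 in DW16 and 6.66, 7.59 and 8.29 in EW16 by 1417780_at. The groups overlapped, yet within every class the DW16 mean was higher, by 0.96, 1.61 and 0.68. The difference was 0.66 as deposited (SE 0.25, limma adjusted p = 0.274), 0.79 after quantile normalization (adjusted p = 0.162) and 0.79 in the other mice (adjusted p = 0.00406), and the remaining Cers4 probe sets differed by 0.15 and 0.60 as deposited. Elavl1, an RNA-binding protein, is the 32nd gene after Insr, read 4.02 to 4.43 in DW16 and 4.02 to 4.96 in EW16 by 1440464_at, below the median of the arrays, and differed by −0.21 (adjusted p = 0.395), against −0.49 in the other mice. None of its remaining probe sets had an unadjusted limma p under 0.01 in the other mice.

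Fcor, a corepressor of FOXO1 that is made in fat cells, is the 14th measured gene after Insr and had the largest difference among the genes repeated in other mice. It read 8.49, 8.84 and 9.47 in DW16 and 6.11, 7.46 and 8.68 in EW16, so that 7 of 9 DW16 mice lay above every EW16 mouse. The difference was 1.53 (SE 0.331), 2.89-fold, and 1.59 after quantile normalization (limma adjusted p = 0.241 and 0.162). EW16 mice 5 to 8, all on full-range arrays, had 6.11 to 6.94. EW16 mouse 4, also on a full-range array, had 7.99, and EW16 mice 1 to 3 had 8.05 to 8.68. The difference was 2.11 within full-range arrays, 0.53 within compressed and 0.45 within intermediate ones. It was 0.70 between DC16 and EC16 and 0.43 between DW8 and EW8 (0.56 over these 21 mice, limma adjusted p = 0.484). In all, 10 probe sets had an unadjusted p under 0.01 in DW16 against EW16 after quantile normalization and under 0.05 in both other pairs, with 1 direction, and 7 of them lie within 100 measured genes of Insr or Irs1, as do 603 of all 45037 probe sets (1.34%). The 7 include Insr itself and 2 probe sets of the Ugt1a cluster, which are annotated to the same genes. Of the 10, Stk25 and Mcm6 lie farther away on the chromosome of Irs1. Mcm6, of the replication helicase, is the 198th gene from Irs1 (−0.86, −0.38 and −0.30 in the 3 pairs). Usp18 is not placed on either chromosome in the gene order. The gene next to Fcor, Trappc5 of vesicle tethering, differed by 0.91 (SE 0.159; adjusted p = 0.168) and by 0.30 in the other mice.

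**Figure D3:**
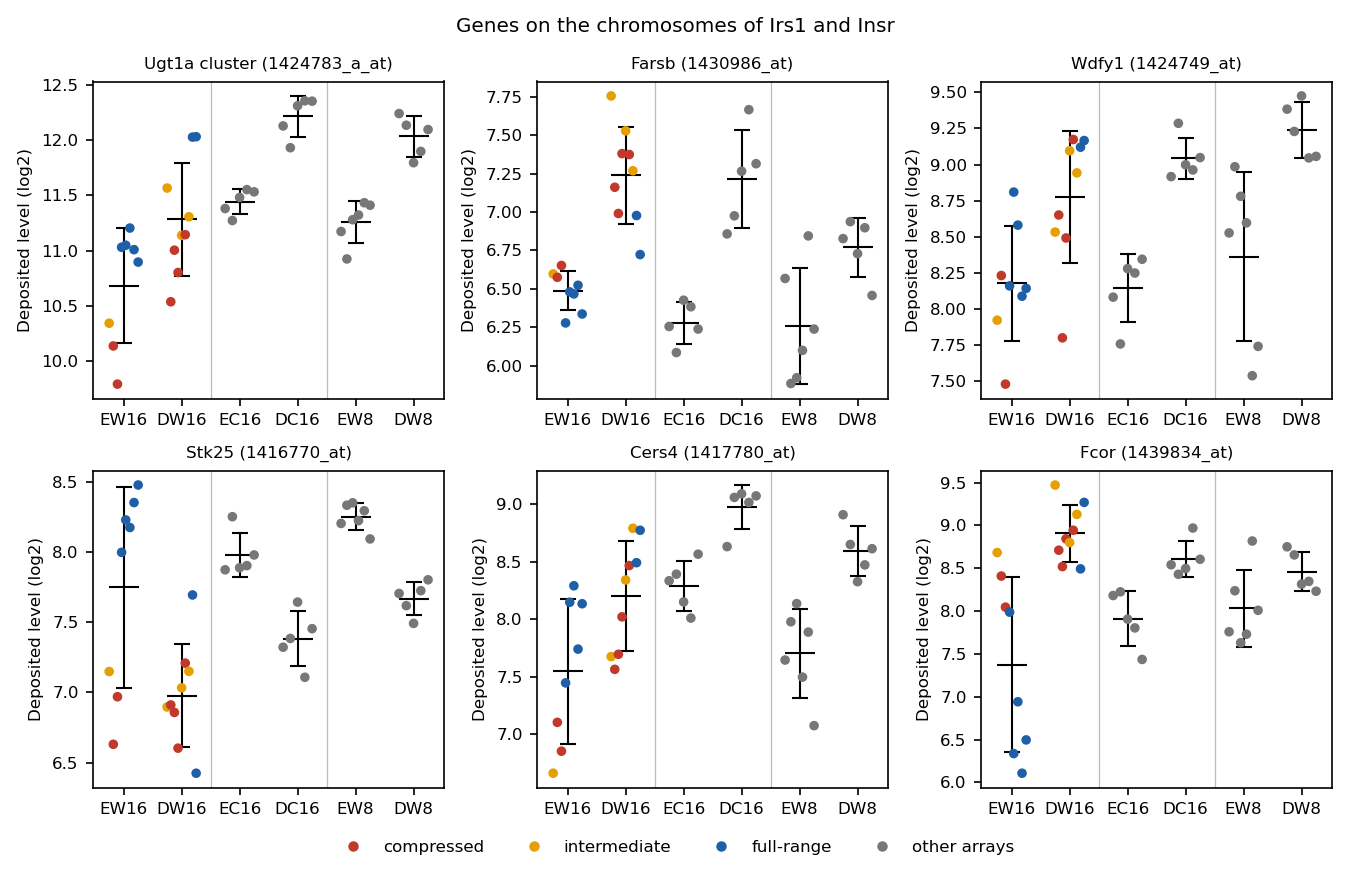
Deposited log2 levels of 6 probe sets on the chromosomes of Irs1 and Insr in every D and E mouse, each point 1 mouse, with the mean and SD of the group in black. The Ugt1a cluster, Farsb, Wdfy1, Cers4 and Fcor have higher means and Stk25 a lower mean in D mice in all 3 pairs of groups.

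Of the 23 probe sets of the 10 measured genes next to Insr, 1 had an unadjusted p under 0.01 after quantile normalization (4.35%), and of the 43 probe sets of the 20 genes around Irs1, 2 did (4.65%), against 5.3% of all probe sets. They are Pet100, of the assembly of cytochrome c oxidase (0.89), Mrpl44, of the mitochondrial ribosome (0.85), and Wdfy1. None was called. After quantile normalization Pet100 still read 8.96 to 9.06 in EW16 mice 1 to 3 and 7.45 to 7.76 in EW16 mice 4 to 8. With the 3 range classes as a block the DW16 level was 1.33-fold (Pet100) and 1.38-fold (Mrpl44) that of EW16. Over the 21 other mice D had 0.91-fold and 1.12-fold the E level, so that Pet100 turned. In windows of 50 genes the share was 7.53% (93 probe sets) at Insr and 5.37% (205) at Irs1. With the 3 range classes as a block the shares were 13% (10 genes) and 10.8% (50 genes) at Insr and 6.98% and 5.37% at Irs1, against 3.59% of all probe sets. Over the 21 other mice 1.04% of all probe sets passed. There the windows of 10 genes held 4.35% at Insr and 9.3% at Irs1, and those of 50 genes 15.1% and 3.9%. The windows of 50 genes held 14 such probe sets of 10 genes at Insr and 8 of 5 genes at Irs1. Of these, 11 and 5 had the same direction in DW16 against EW16 after quantile normalization. Over all 468 probe sets with that p in the other mice the share with the same direction was 61.3%.

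**Figure D4:**
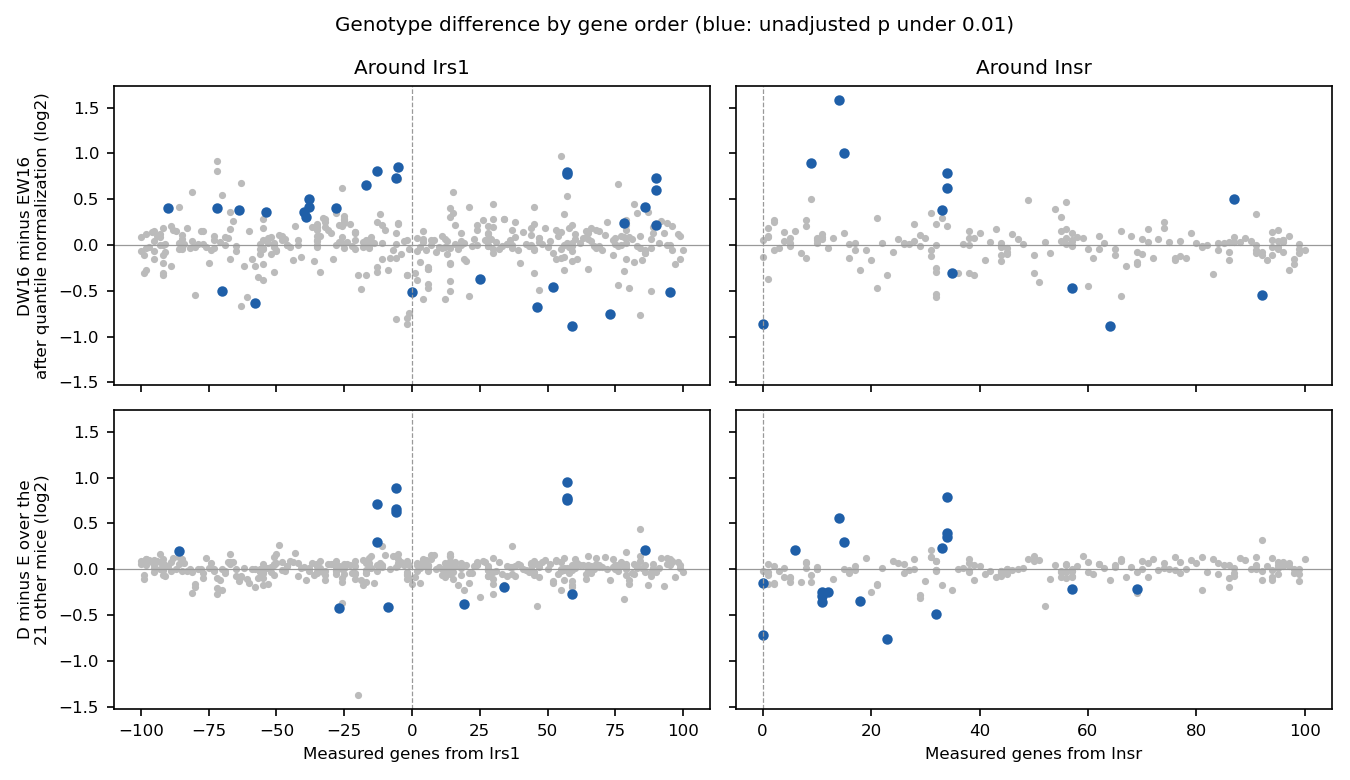
Genotype difference of every probe set of the 100 measured genes around Irs1 and after Insr, by gene order, in log2 units (top, DW16 minus EW16 after quantile normalization; bottom, D minus E over the 21 other mice), with unadjusted p under 0.01 in blue. In the other mice 14 of the 16 blue points after Insr lie within 50 genes of it.

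Outside these loci, limma called none of the probe sets with the smallest p as deposited (0 of all 45037). SAM called Krt79, Lipt2, Crtac1, Amhr2, Dagla, Tigar and Syn2, which lay higher, and Rel, Wipf1, Lcorl and Zc3h14, which lay lower. It also called 2 probe sets with no gene named, which could not be placed on a chromosome here, inside or outside the loci. Higher in DW16 by that order were Krt79, a keratin of hair follicle and gland epithelium, Lipt2, of the lipoic acid pathway of mitochondria, and Crtac1, a matrix protein. Krt79 read 6.95, 7.51 and 7.79 in DW16 and 6.44, 6.68 and 6.92 in EW16 and did not overlap (difference 0.72, SE 0.116; limma adjusted p = 0.152, and 0.0684 after quantile normalization). It differed by 0.82, 0.68 and 0.58 in the 3 classes but by −0.02 in the 21 other mice. Lipt2 (0.65, SE 0.111) and Crtac1 (1.07, SE 0.197) differed by 0.02 and 0.21 in those mice. Amhr2, the receptor of anti-Müllerian hormone, read 6.61, 6.99 and 7.83 in DW16 and 5.47, 6.19 and 6.55 in EW16, again without overlap (0.99, SE 0.19), and differed by −0.09 in the other mice. Dagla, which makes the endocannabinoid 2-AG, Tigar, which lowers fructose-2,6-bisphosphate, the folate carrier Slc19a1 and 4430402I18Rik differed by 0.47 to 0.76 (adjusted p = 0.241 each). Tmem80 was added by the quantile normalization (0.50, adjusted p = 0.162).

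Of the genes lower in DW16, Rel, the c-Rel subunit of NF-kB, read 7.85, 8.18 and 8.61 in DW16 and 8.50, 8.93 and 9.36 in EW16, and 8 of 9 DW16 mice lay below every EW16 mouse. Its difference was −0.73 (SE 0.131; limma adjusted p = 0.168), −0.60 after quantile normalization, and −0.52, −0.52 and −0.72 in the 3 classes. It was −0.49 between DC16 and EC16 and 0.10 between DW8 and EW8. Gzmb, the granzyme of cytotoxic lymphocytes, read 5.47, 5.65 and 5.97 against 5.91, 6.23 and 6.75 (−0.55, SE 0.114), and Fasl, the death ligand they carry, and the interferon-induced Gbp8 differed by −0.61 and −0.87 at levels below the median of the arrays. Wipf1 and Dock2, which act on the actin of blood cells, differed by −0.62 and −0.76. Irgm2, an interferon-induced GTPase, differed by −1.03 as deposited and −0.86 after quantile normalization (limma adjusted p = 0.162), by −0.44 between DC16 and EC16 and by 0.00 between DW8 and EW8. Lcorl, Zc3h14, Rsbn1 and Stk17b differed by −0.45 to −0.81. Tm6sf1 and 4930503L19Rik, among the smallest p with the compressed arrays as a block, differed by −1.69 and −1.19 as deposited. These are 0.31-fold and 0.44-fold the EW16 level, against 0.47-fold and 0.57-fold with the 3 range classes as a block. Over the 21 other mice the D levels of the 2 genes were 0.81-fold and 1.04-fold those of E.

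No member of the 36 gene lists was called by limma as deposited, as limma called 0 of all 45037 probe sets. The 16 probe sets that SAM called included the list members Insr, Rel and Tigar. The ovary marker Amhr2 was among them by a probe set other than the one listed. Of the lists, 28 had a median below 0 as deposited against 12 with the 3 range classes as a block. The median over all probe sets was 0.01 as deposited and 0.00 with the block, but as deposited it depended on level. With probe sets grouped by level, it was 0.01 to 0.05 at mean levels of 3.51 to 5.97. At mean levels of 8.89 and 10.92 it was −0.16 each, and 0.01 and 0.03 with the block. A list of bright genes with a median near −0.16 as deposited therefore lay no lower than bright probe sets at large. NF-kB and cytokine genes (19 measured) had a median of −0.55 as deposited, −0.38 after quantile normalization and −0.09 with the block. As deposited 8 of the 19 lay lower at an unadjusted p under 0.05 and 0 higher, where 7.9% of all probe sets lay lower and 6.74% higher. After quantile normalization 8 lay lower (8.26% of all probe sets) and with the block 2 did (5.68%). Tnf differed by −0.56, Il1b by −0.70 and the adhesion molecule Vcam1 by −0.90, with −0.28, −0.33 and −0.33 under the block. Immediate early genes (29), which answer growth factors and handling of tissue within minutes, had medians of −0.55, −0.37 and −0.18, with 7 lower and 0 higher as deposited, 15 lower and 1 higher after quantile normalization, and 6 lower and 0 higher with the block. Arc differed by −1.05, Btg2 by −0.87, Nr4a3 by −0.83 and Myc by −0.82.

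Of 24 interferon response genes measured, the median difference was −0.27 in DW16 against EW16, −0.25 in DC16 against EC16 and −0.16 in DW8 against EW8, and 7, 13 and 7 of the 24 lay lower at an unadjusted p under 0.05, where 7.9%, 2.86% and 2.08% of all probe sets did. In DW16 against EW16 the median was −0.16 after quantile normalization (6 lower, 0 higher; 8.26% and 8.29% of all probe sets), −0.05 with the block (3 lower, 1 higher; 5.68% and 7.54%) and 0.03 on full-range arrays alone, where its direction turned. Usp18, which restrains interferon signaling, read 6.51, 7.05 and 8.36 in DW16 and 7.20, 8.78 and 9.73 in EW16, and 7 of 9 DW16 mice lay below every EW16 mouse (−1.26, SE 0.382; limma adjusted p = 0.241). With the 3 range classes as a block its DW16 level was 0.65-fold that of EW16, against 0.42-fold as deposited. Usp18 differed by −0.31 and −0.40 in the other pairs. Oasl2 differed by −1.01, Oas1a by −0.35 and Mx2 by −0.22. None of these genes was called in any of the 3 comparisons, which had 0, 1 and 0 calls over all 45037 probe sets.

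The 5 lists of insulin action had medians of −0.36 to −0.09 as deposited and of −0.20 to −0.02 after quantile normalization. Of 11 receptor and docking protein genes 3 lay lower at an unadjusted p under 0.05 and 0 higher (7.9% and 6.74% of all probe sets), which were Insr, Irs1 and the IGF1 receptor Igf1r (−0.43), and the median was −0.09 as deposited and −0.02 after quantile normalization. With the 3 range classes as a block 3 lay lower and 3 higher. The adaptor Grb10 differed by −0.54. Of 21 PI3K, AKT and GLUT4 genes (median −0.17, and −0.04 after quantile normalization) 4 lay lower and 0 higher as deposited (7.9% and 6.74% of all probe sets), 6 lower and 1 higher after quantile normalization (8.26% and 8.29%), and 2 lower and 4 higher with the block (5.68% and 7.54%). Those lower as deposited differed as follows: Inppl1, a lipid phosphatase, by −0.97, Prkci by −0.63, Pik3ca, the catalytic subunit of PI3 kinase, by −0.57 and Gsk3b by −0.48. Inhibitors of the signal (16; median −0.36, and −0.20 and −0.06 in the other fits) included Prkcd (−0.60), Socs2 (−0.47), Ptprf (−0.44) and the JNK kinase Mapk8 (−0.26). Among 21 mTOR and TSC genes the translation repressor Eif4ebp1 (0.42), the leucine sensor Sesn2 (0.93) and Lamtor1 (0.39) lay higher and Rictor lower (−0.74), and the median was −0.17, −0.06 and 0.17 in the 3 fits. FOXO1 targets (22; −0.21, −0.07 and −0.06) held Foxo4 (0.23) and Tsc22d3 (0.71) as well as Fbxo32 (−0.47) and Cdkn1b (−0.38).

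Of the lists of fat cell metabolism, lipogenesis genes (18) had medians of −0.16, −0.05 and 0.12, and Scd2, Acaca and Fads1 (−0.36, −0.35 and −0.31) were all within −0.02 to 0.08 under the block, while the pyruvate kinase Pklr differed by 0.18. Lipolysis and lipid droplet genes (18) had −0.06, 0.09 and 0.24, with Plin5, which ties droplets to mitochondria, 0.83 and Bscl2, the seipin gene, 0.41 higher, and Fitm2 and Hcar2 at −0.36 and −0.38. Oxidative phosphorylation genes (24) had −0.01, 0.15 and 0.19, and 2, 11 and 10 of them lay higher at an unadjusted p under 0.05, where 6.74%, 8.29% and 7.54% of all probe sets did. Cox7a2 differed by 0.62, Cox6c by 0.52, Ndufb5 by 0.38 and Ndufb8 by 0.26. Fat cell identity was plain in both groups: Adipoq read 14.04 in DW16 and 14.22 in EW16 and Pparg 11.2 and 11.3, above 96.8% or more of the probe sets. In the identity list (25 measured) Ebf1 and Klf5 differed by 0.71 and 0.65 and Adipor1 and Nrip1 by −0.67 and −0.44.

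Macrophage markers (26 measured, 4 of them below the median of the arrays) had a mean level of 7.87 to 8.71 in DW16 and 8.01 to 9.67 in EW16, with a median difference of −0.32 as deposited, −0.22 after quantile normalization and −0.14 with the block. At an unadjusted p under 0.05, 4 of the 26 lay lower as deposited (7.9% of all probe sets), 4 after quantile normalization (8.26%) and 10 with the block (5.68%), and 0 lay higher in each. On full-range arrays alone the median was −0.04, with 3 lower and 4 higher (11.1% and 10% of all probe sets). On compressed and intermediate arrays it was −0.53, with 6 lower and 0 higher (1.5% and 2.23%). Ptprc, the common leukocyte antigen, read 7.90, 8.84 and 10.54 in DW16 and 8.38, 11.02 and 11.25 in EW16 (−1.51, SE 0.422; limma adjusted p = 0.241), the macrophage antigen Adgre1 differed by −1.04, the protease Ctss by −1.0002 and the receptor Mrc1 by −0.72. EW16 mouse 1, the one EW16 mouse on an intermediate array, had the highest Adgre1 level of all 17 mice, at 11.7, and in that class the difference was −3.45, against −0.14 and −0.76 in the others. Lymphocyte markers (15 measured) had a mean level of 5.96 to 6.64 in DW16 and 6.25 to 6.67 in EW16 and a median of −0.03, with Gzma at −0.84, Igha at −1.15 and Cd3e at 0.20. Fewer cells of a type and less RNA per cell cannot be told apart in these samples, and the part of such cells in the lower levels of Rel, Gzmb, Dock2 and the cytokine and interferon lists was not tested. Markers of mammary epithelium (4.70 to 5.13 in DW16, 4.69 to 5.12 in EW16), liver, muscle, mesothelium, ovary and red cells had median differences of −0.00 to 0.10 as deposited, and those of endothelium and stroma −0.41 and −0.21. With the block endothelium and stroma had 0.02 and 0.06 and mesothelium 0.29, and mesothelium had 0.61 on full-range arrays alone.

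**Figure D5:**
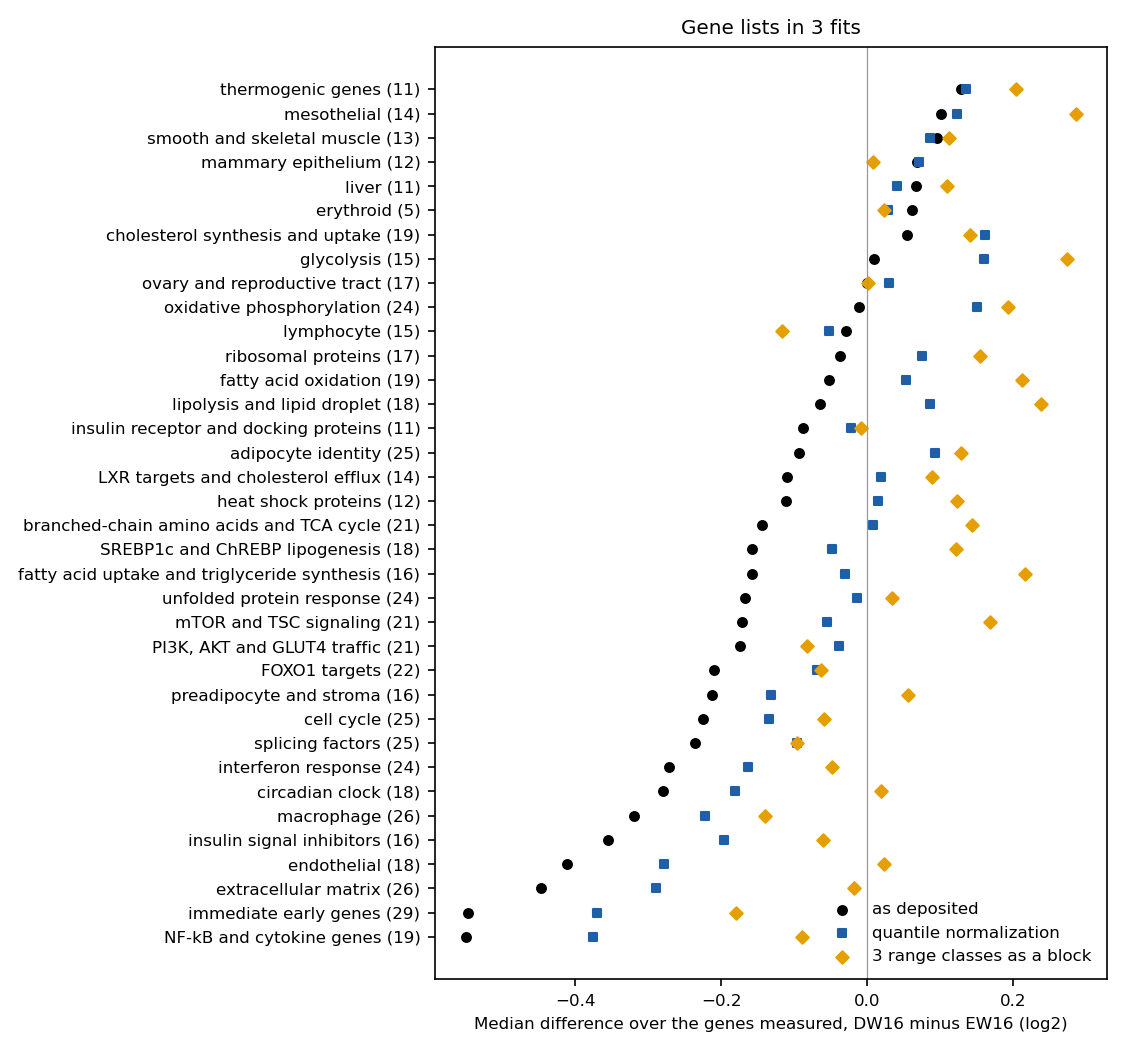
Median difference (DW16 minus EW16, log2) over the measured genes of each of 36 lists, number measured in brackets, in 3 fits. The NF-kB, immediate early, extracellular matrix and endothelial lists are the lowest as deposited, at −0.41 to −0.55, and come nearest to 0 with the 3 range classes as a block.

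The genotype difference did not pass a test of change with diet or time in any probe set. The difference between DW16 and EW16 set against that between DC16 and EC16 was called in 0 of 45037 probe sets in limma (2844, 6.31%, at an unadjusted p under 0.05), and set against that between DW8 and EW8 also in 0 (3123, 6.93%). Within the smaller pairs, DC16 against EC16 gave 1 call, a Ugt1a probe set (0.00222%; 2824 at an unadjusted p under 0.05), and DW8 against EW8 gave 0 (1859). In 1 fit of all 38 mice, DW16 and EW16 included, 6 probe sets were called as deposited (0.0133%), 5 higher and 1 lower in D mice. After quantile normalization that fit called 9 (0.02%), 7 higher and 2 lower in D mice. They were the 3 Ugt1a probe sets, Insr (−0.78, adjusted p = 6.55e-06), Farsb, Wdfy1, Cers4, Stk25 and 1442209_at, a probe set with no gene named here, which read 6.03, 6.30 and 6.45 in DW16 and 5.59, 5.88 and 5.98 in EW16.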

How the data were processed

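The authors hybridized RNA of each mouse to an Affymetrix MG430-2.0 array with global scaling and normalized the arrays with RMA express. The deposited levels are log2 values. The program's version, and if the arrays of all groups went through it at once, are not given in the sources used here. Columns of the deposited table left out: 0. Of 45037 probe sets 34945 carry 1 gene symbol, 932 several and 9160 none, and 34741 of the first match RefSeq (GRCm38.p6) by gene number, used for the gene order.

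Groups follow the labels. R 4.3.3 with limma 3.58.1 (lmFit and eBayes, no filter on level) gave the differences, and p-values were adjusted by Benjamini and Hochberg over all probe sets with a threshold of 0.01. The largest gap between neighbouring 95th percentiles of the 17 arrays (10.50 to 10.79) sets off the 6 compressed arrays, the planned block. A further division at 10.85 to 10.99, added once values were known, gives 3 classes. It is not the next largest gap, which lies among the compressed arrays (10.35 to 10.50). Quantile normalization used the 17 arrays. For a gene on a list the brightest of its probe sets, on average, was taken. SAM was written anew with 100 label permutations. Permutation tests were exact over 24310 splits, two-sided. Steps were tested on simulated data. Plots were made with Matplotlib 3.10.9.

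Genes named are the targeted genes, the 10 with the smallest p in each direction as deposited (none being called), 5 and 5 after quantile normalization and with the compressed arrays as a block, 4 per list by p, and, added later, probe sets called in the 21 other mice or in all 3 pairs with 1 direction. The members and lists were chosen with earlier results of these data known. Nothing states that mice were paired. The mice are taken as separate samples, p-values measure the spread between them, and their number limits the precision. Alternatives were other scalings, a filter on level, range as a block or covariate, array weights, SAM, other thresholds, blocking on the replicate number, and leaving out 1 mouse at a time. Promoter letters were read from RefSeq.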

Additional observations from a re-analysis of the deposited data

Results flagged for a closer look

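Dixon's test was applied within DW16 and EW16 to each named probe set, 84 group values in all, of which 2 stood apart, and chance alone marks about 1 in 20. DW16 mouse 3, on a compressed array, had a Wdfy1 level of 7.80, below the next lowest DW16 mouse at 8.49. DW16 mouse 8, on a full-range array, had a Pet100 level of 8.05, below the next at 8.67. No probe set passed the test of a genotype effect that differs with diet or time.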

How the results depend on the processing

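The count of 0 called probe sets between DW16 and EW16 stayed at 0 under other scalings, with only probe sets above the median level, on subsets of arrays and with any 1 mouse left out (0 to 0), but not under every model. It was 2 with array SD as a covariate, 3 with the 3 range classes as a block before and after quantile normalization, 16 by SAM, 281 with 1 spread over all 7 groups and 6393 with array weights, and after quantile normalization 1 probe set passed an adjusted p of 0.05. Insr (−1.12 to −0.94 with 1 mouse left out) was called by SAM, with array weights (−1.23) and with 1 spread (−1.03), and Irs1 (−0.85 to −0.62) with array weights (−0.93). The cause was not tested. Gene lists with a median below 0 numbered 17 with the compressed arrays as a block and 12 with the 3 classes. Over the 21 other mice 8 probe sets passed an adjusted p of 0.05, and the count was 4 to 9 with 1 mouse left out, 9 without EW8 mouse 5. The 1 call between DC16 and EC16 became 0 to 1 with 1 mouse left out (only without EC16 mouse 3 was it kept at 1) and 0 with the replicate block.

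Directions turned for single genes. With the 3 classes as a block Acaca was 0.079 and Fads1 0.080 (0.0086 and 0.059 after quantile normalization), and with the SD covariate 0.029 and 0.025. With array weights Apoe was −0.14 and Ugt1a 1426260_a_at −0.16, and Apoe was −0.066 to 0.13 with 1 mouse left out. On full-range arrays alone Acaca was 0.30, Fads1 0.13 and Scd2 0.053, and outside the compressed arrays Apoe was −0.060, Insr 1421380_at 0.025 and Insr 1450225_at −0.016. On compressed and intermediate arrays Acaca was 0.037, Adipor1 0.19, Fads1 0.13, Fitm2 0.13, Grb10 0.28, Gsk3b 0.22, Hcar2 0.061, Inppl1 0.12, Nrip1 0.089, Ptprf 0.032, Rictor 0.22, Scd2 0.077, Stk25 0.035 and Vcam1 0.065. On the 6 compressed arrays Adipor1 was 0.010, Fads1 0.073, Fitm2 0.10, Grb10 0.11, Gsk3b 0.048, Gzma 0.13, Hcar2 0.037, Igha 0.69, Inppl1 0.079, Nr4a3 0.073, Nrip1 0.026, Oas1a 0.013, Prkcd 0.077, Prkci 0.024, Stk25 0.10 and Vcam1 0.044.

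Correlations between same-numbered mice ran from −0.44 to 0.53, and 3 EW16 mice were closest to their own number. Same-numbered mice 1, 2, 3 and 8 also shared an array range class, so these values cannot decide if the numbers pair mice. With a replicate block over numbers 1 to 8 (DW16 mouse 9 left out) 0 probe sets were called, Insr differed by −0.99, Irs1 by −0.66 and Apoe by −0.066.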
